A study of Mus musculus with 6 samples.

Results

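The macrophage identity genes are 9 markers and transcription factors of the macrophage lineage, taken as the rows of the table with these symbols: Adgre1, Csf1r, Cd68, Maf, Lyz2, Aif1, Mpeg1, Ms4a7 and Zeb2. All 9 were found among the 16254 genes of the estimated count table, and all 9 passed the filter on low counts that left 13498 genes for testing. They were measured by bulk poly(A) RNA sequencing of eosinophils grown from the bone marrow of C57BL/6 mice aged 6 to 12 weeks, first with FLT3 ligand and stem cell factor and then with IL-5. On culture day 12, the cells received activated TH2 cell EVs (extracellular vesicles purified by size exclusion chromatography from medium of restimulated T helper type 2 cells) or a sham control, unconditioned medium processed in parallel, and RNA was collected after 24 hours from 3 EV-treated and 3 sham-treated biologic replicates. The labels describe no sort of the cells before RNA was taken, and both groups came from the same strain and culture protocol.

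Macrophages and eosinophils share a bone marrow origin and part of their gene program. Macrophages develop and survive under signals from the receptor encoded by Csf1r, and their identity is set by lineage factors that include members of the MAF family. Adgre1, which encodes the adhesion receptor F4/80, is the classic surface marker of mouse macrophages but is also present on mouse eosinophils. Lyz2, Cd68 and Mpeg1 encode proteins of the lysosome and of microbe killing in phagocytes.

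After 24 hours, 8 of the 9 macrophage identity genes were lower in EV- than in sham-treated cultures (adjusted p under 0.01, quasi-likelihood test of edgeR), and Adgre1 alone was higher. Among all genes tested, 11.6% were lower and 12.1% were higher by the same rule. The decreases were of very different size, from 9.69-fold for Lyz2 to 1.27-fold for Zeb2, and the increase of Adgre1 was 1.54-fold. The median log2 fold change (EV minus sham) was -2.06 over the 9 genes and -0.01 over all genes tested. At a log2 fold change of at most -1, 7 of the 9 were still called lower, against 6.35% of all genes, and with an increase of at least 1 none was called higher, against 3.1% of all genes. In each of the 9 genes, the 3 EV-treated samples lay entirely on one side of the 3 sham-treated samples, 8 below and 1 above, where 24.7% of all genes tested were separated with the EV-treated samples below and 24.8% with them above. In these bulk cultures, fewer cells of a type, less RNA per cell and more RNA from other cells cannot be told apart. Counts are relative to the total of each library. The paper reports better survival of cultured eosinophils with these EVs than without treatment. The part of eosinophil survival in the results was not tested.

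**Figure D1:**
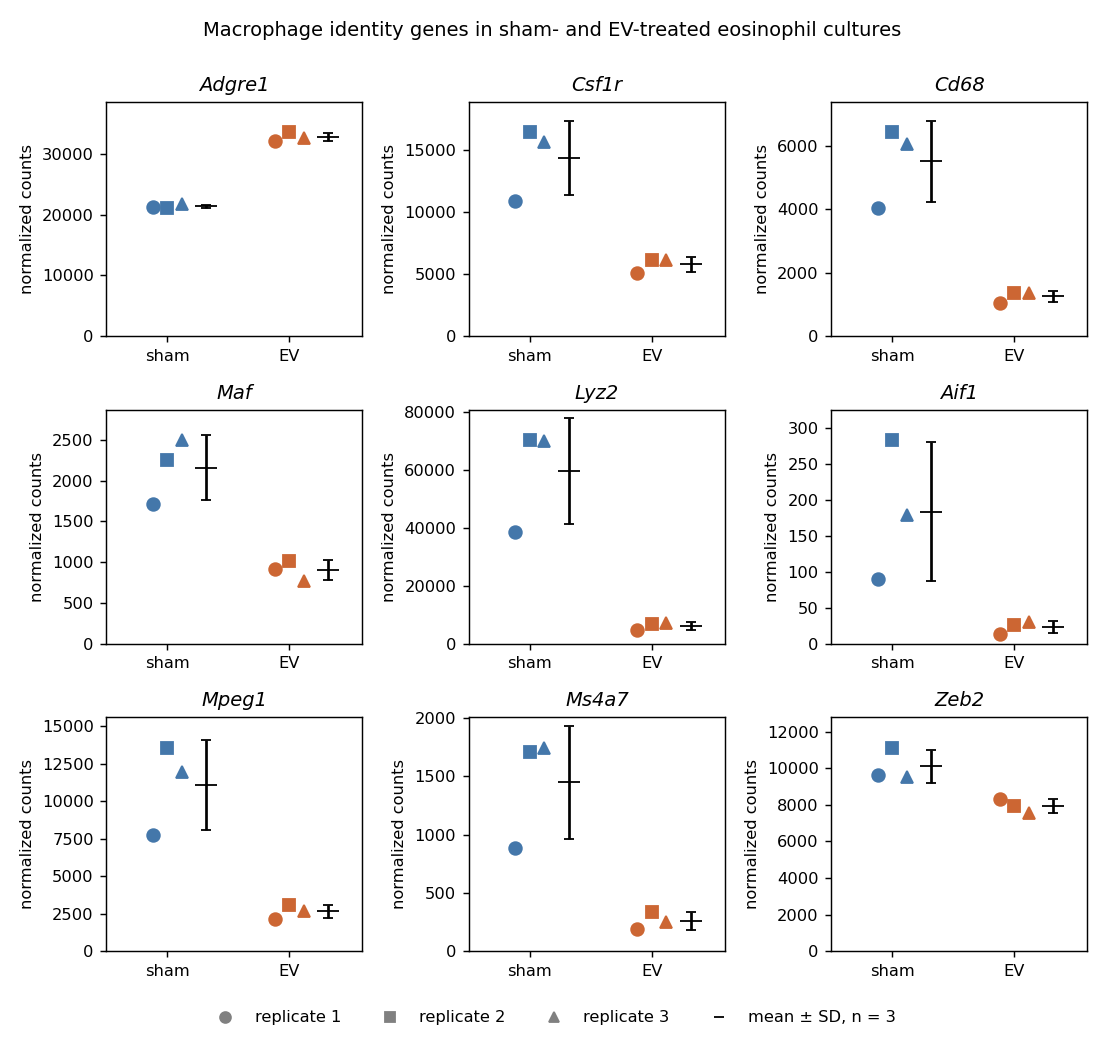
Normalized counts (y axis, starting at 0) of the 9 macrophage identity genes in sham- and EV-treated cultures, with 1 marker shape per replicate and the mean ± SD (n = 3) as a bar. Adgre1 is the only panel in which the EV-treated samples lie above the sham-treated samples, and sham replicate 1 is the lowest sham-treated sample in 7 panels.

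The libraries held between 23697573 and 37874393 counts. Values are given as normalized counts, for which each rounded count was divided by its sample's effective library size (after TMM scaling), itself expressed relative to the geometric average over all 6 samples. Sham replicate 1 stood apart in the macrophage genes, with 94858 normalized counts summed over the 9 genes against 143063 and 139063 in the other sham-treated samples and 54427 to 60173 in the EV-treated samples. Eosinophil markers carried the largest share of the RNA of any cell type list: the granule genes Prg2 and Epx had 634580 ± 79536 and 146963 ± 16264 (SD, n = 3) normalized counts in sham-treated cultures, and 742952 ± 32619 and 195568 ± 17320 (SD, n = 3) in EV-treated cultures.

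The sequence just upstream of the start site is shown for the 5 genes that fell by more than 2 on the log2 scale. They were chosen by that fall alone, and shared regulation was not tested. Each line gives 200 bases, from 250 to 51 bases before the RefSeq start (build GRCm38.p6), on the strand of the gene. Capitals mark GAGGAA or GGAAGT on either strand, short purine-rich motifs of the kind bound by PU.1 and other ETS factors, which are known regulators of macrophage promoters.
Lyz2, chr10:117282323-117282522, minus strand: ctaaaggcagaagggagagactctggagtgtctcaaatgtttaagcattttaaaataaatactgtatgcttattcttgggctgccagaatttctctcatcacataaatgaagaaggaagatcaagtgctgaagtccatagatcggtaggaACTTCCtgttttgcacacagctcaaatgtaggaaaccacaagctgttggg
Aif1, chr17:35176103-35176302, minus strand: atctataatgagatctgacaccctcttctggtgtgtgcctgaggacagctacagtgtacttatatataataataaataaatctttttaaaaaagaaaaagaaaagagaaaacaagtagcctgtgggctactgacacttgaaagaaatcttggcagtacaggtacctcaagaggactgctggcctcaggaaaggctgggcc
Ms4a7, chr19:11336197-11336396, minus strand: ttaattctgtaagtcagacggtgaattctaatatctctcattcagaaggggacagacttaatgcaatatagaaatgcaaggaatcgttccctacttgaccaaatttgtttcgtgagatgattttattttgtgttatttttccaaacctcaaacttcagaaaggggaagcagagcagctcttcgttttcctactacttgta
Cd68, chr11:69666221-69666420, minus strand: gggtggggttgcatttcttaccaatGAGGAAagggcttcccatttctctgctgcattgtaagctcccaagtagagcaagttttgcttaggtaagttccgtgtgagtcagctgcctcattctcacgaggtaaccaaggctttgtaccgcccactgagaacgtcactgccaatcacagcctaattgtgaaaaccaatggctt
Mpeg1, chr19:12460520-12460719, plus strand: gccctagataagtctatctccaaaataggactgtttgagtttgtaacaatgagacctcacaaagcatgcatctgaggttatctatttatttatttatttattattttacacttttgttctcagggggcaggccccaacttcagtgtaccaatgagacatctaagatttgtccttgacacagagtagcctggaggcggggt
A promoter entry was matched for 6 of the 9 genes. Of these, 3 (Cd68, Lyz2 and Zeb2) held GAGGAA or GGAAGT in this window, compared with 29.5% of the 32851 promoter windows of the same length. The pair of motifs shares the bases GGAA, so 1 stretch can match both. The C/EBP-type motif TTGCNNAA was found in 1 of the 6 (Zeb2) and in 8.11% of all windows. TGCTGA, part of the element bound by MAF proteins, was found in 1 (Lyz2) and in 13.1% of all windows. The E-box CACCTG, which ZEB2 can bind, was found in none of the 6 and in 14.4% of all windows. A match is a description of these letters only.

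Among the lysosomal and antimicrobial effector genes, Lyz2 changed most. Lyz2 encodes lysozyme M, which cleaves bacterial cell walls, and lies at chr10:117277331-117282321 (mm10, minus strand). It had 38591, 70196 and 69793 normalized counts in sham replicates 1 to 3 and 4568, 6755 and 7104 in EV replicates 1 to 3. The highest EV-treated sample lay 5.43-fold below the lowest sham-treated sample. The log2 fold change was -3.28 (SE 0.241, edgeR adjusted p = 4.59e-06), which ranked 148 from the lowest among the 13498 genes. Of the 31-base words in the Lyz2 transcripts, 32.8% also occur in its paralog Lyz1, but the count of Lyz1 was at most 0.0958% of that of Lyz2 in any library, and adding the counts together left the log2 fold change at -3.28.

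Cd68 encodes a glycoprotein of late endosomes and lysosomes used as a pan-macrophage marker (chr11:69664213-69666153, minus strand). It had 4047, 6429 and 6057 normalized counts in the 3 sham-treated samples and 1049, 1364 and 1353 in the 3 EV-treated samples. All EV-treated samples were thus at least 2.97-fold below the lowest sham-treated sample. This was a log2 fold change of -2.13 with an SE of 0.169 (adjusted p = 7.7e-06).

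Mpeg1 encodes perforin-2, a pore-forming protein that acts on engulfed bacteria (chr19:12460779-12465283, plus strand). Its normalized counts were 7766, 13562 and 11955 in sham-treated and 2177, 3090 and 2692 in EV-treated samples, with no overlap. Mpeg1 had a log2 fold change of -2.06 (SE 0.193, adjusted p = 2.21e-05). Mpeg1 and Cd68 kept nearly the same ratio in every library: the count of Mpeg1 was between 1.92 and 2.11 times that of Cd68 in sham-treated and between 1.99 and 2.27 times in EV-treated samples.

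Of the surface and cytoplasmic markers, Adgre1 moved opposite to all others. Adgre1 (chr17:57358691-57483527, plus strand) had 21206, 21095 and 21678 normalized counts in sham-treated samples and 32085, 33532 and 32675 in EV-treated samples. It was also the most even of the 9 genes within groups, with a highest sample 1.03 times the lowest in sham-treated and 1.05 times in EV-treated cultures. The increase was 0.62 on the log2 scale (SE 0.0478, adjusted p = 6.36e-06). Its count was between 0.301 and 0.549 times that of Lyz2 in the sham-treated libraries and between 4.60 and 7.02 times in the EV-treated libraries, a ratio within each library that does not depend on scaling between samples.

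The genes whose profile over the 6 samples was closest to that of Adgre1 were Myl12a, N4bp1, Ahctf1, Prelid1 and Wipf1. The root mean square difference of their centred log2 CPM (counts scaled to library size) from those of Adgre1 was between 0.0148 and 0.0321. Its paralogs Adgre4 and Adgre5 rose as well: Adgre4 went from 5617 ± 311 to 7386 ± 32.8 (SD, n = 3) normalized counts (log2 fold change 0.39, adjusted p = 0.000551) and Adgre5, which encodes CD97, from 8993 ± 191 to 12962 ± 24.3 (SD, n = 3; log2 fold change 0.53, adjusted p = 2.52e-05).

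Csf1r encodes the receptor for CSF-1 and IL-34 (chr18:61100598-61132149, plus strand). It had 10909, 16415 and 15633 normalized counts in sham-treated and 5084, 6148 and 6103 in EV-treated samples. The groups did not overlap, and sham replicate 1 was the sham-treated sample nearest to the EV-treated ones. The log2 fold change was -1.31 (SE 0.141, adjusted p = 5.67e-05). Csf1r overlaps Hmgxb3 on the opposite strand, and 14.9% of its 31-base words occur in another gene. Whether reads were counted by strand is not given in the sources used here. Hmgxb3 itself had 1276 ± 90.6 and 1166 ± 47.1 (SD, n = 3) normalized counts and did not pass (adjusted p = 0.265).

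Ms4a7 encodes a tetraspanning membrane protein of the MS4A family (chr19:11321039-11336146, minus strand). It had 888, 1708 and 1744 normalized counts in sham-treated and 190, 338 and 250 in EV-treated samples, with no overlap. Ms4a7 changed by -2.47 on the log2 scale (SE 0.274, adjusted p = 7.05e-05). Aif1, which encodes the calcium- and actin-binding protein IBA1 (chr17:35170991-35176068, minus strand), was by far the least covered gene. Its counts before scaling were 99, 231 and 147 in sham-treated and 14, 30 and 34 in EV-treated libraries. In normalized counts the sham-treated samples ranged from 89.2 to 283 and the EV-treated samples from 14.0 to 29.6, and the log2 fold change of -2.97 had the largest SE of the 9 genes, 0.467 (adjusted p = 0.000725).

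Of the lineage transcription factors, Zeb2 had the smallest decrease of the 8 genes, and Maf fell about as far as Csf1r. Maf, a basic leucine zipper factor that helps keep macrophages differentiated (chr8:115682942-115707794, minus strand), had 1717, 2254 and 2497 normalized counts in sham-treated and 919, 1011 and 771 in EV-treated samples. These groups did not overlap, and the log2 fold change was -1.26 (SE 0.143, adjusted p = 8.32e-05). Maf and Csf1r stayed in a similar proportion, the count of Maf being between 0.137 and 0.160 times that of Csf1r in sham-treated and between 0.126 and 0.181 times in EV-treated libraries.

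Zeb2, a zinc finger repressor needed for the upkeep of several myeloid lineages (chr2:44983632-45117395, minus strand), had 9644, 11121 and 9528 normalized counts in sham-treated and 8341, 7910 and 7544 in EV-treated samples. Of its 31-base words, 3.31% occur in another gene, such as the antisense Zeb2os, and of those of Maf 5.38% do, such as in the antisense Gm15655. The lowest sham-treated sample of Zeb2 lay only 1.14-fold above the highest EV-treated sample. The log2 fold change was -0.35 (SE 0.0729, adjusted p = 0.00412). This call was lost when sham replicate 2 (adjusted p = 0.0118), EV replicate 2 (0.0234) or EV replicate 3 (0.0289) was left out. The related factor Zeb1 went the other way, from 1559 ± 259 to 2177 ± 36.4 (SD, n = 3) (log2 scale: 0.48, adjusted p = 0.00563).

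**Figure D2:**
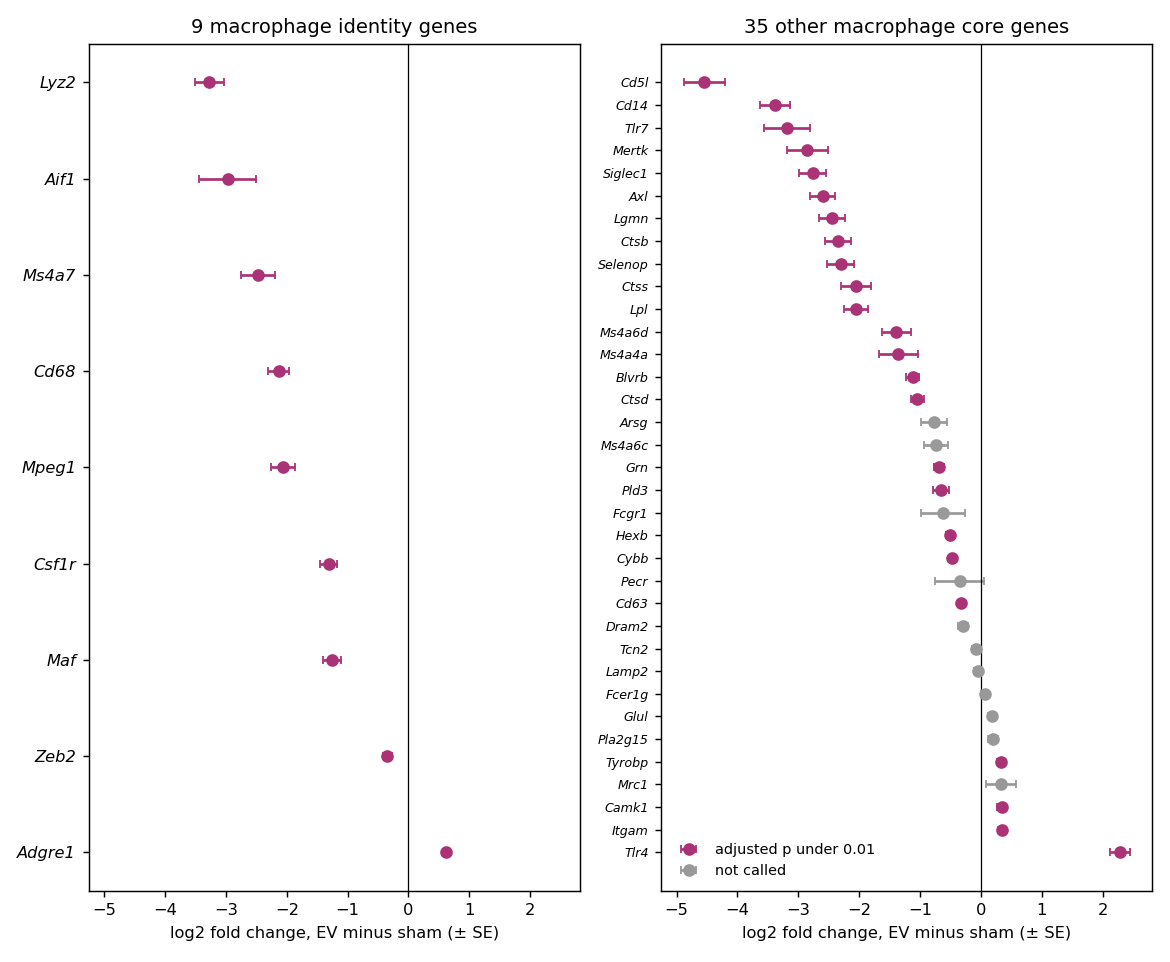
Log2 fold change (EV minus sham, x axis) with its standard error for the 9 macrophage identity genes (left) and 35 further macrophage core genes (right), coloured by adjusted p under 0.01. Cx3cr1, with no count in any EV-treated library, is not plotted in the right panel, nor is a gene not reported here. Lyz2 lies at -3.28 and Adgre1 at 0.62, and the genes on the right range from Cd5l at -4.55 to Tlr4 at 2.28.

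Compared per kilobase of the longest coding transcript, the order of the genes changed with treatment. In sham-treated cultures Lyz2 was highest, at 45233 ± 13778 (SD, n = 3) normalized counts per kilobase, followed by Adgre1 at 6586 ± 95.6, Cd68 at 4481 ± 1042 and Csf1r at 3046 ± 634. In EV-treated cultures Adgre1 led at 10119 ± 225 (SD, n = 3), ahead of Lyz2 at 4667 ± 1045 and Csf1r at 1229 ± 128. The lowest levels per kilobase in sham-treated cultures were those of Maf, at 339 ± 62.7, and Aif1, at 210 ± 111. Sample ranges overlapped in sham-treated cultures between the neighbors Cd68 and Csf1r, Csf1r and Mpeg1, Zeb2 and Ms4a7, and Maf and Aif1, so that these pairs are not ordered beyond their spread. In EV-treated cultures the same held for Csf1r and Cd68, Cd68 and Zeb2, and Ms4a7 and Maf.

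The genes also varied together within groups. Sham replicate 1 was the lowest sham-treated sample for 7 of the 9 genes, all but Adgre1 and Zeb2, and EV replicate 1 was the lowest EV-treated sample for 7 of the 9, all but Maf and Zeb2. For the genes that fell, the highest sham-treated sample exceeded the lowest by between 1.17-fold, for Zeb2, and 3.17-fold, for Aif1. Except for Adgre1, each gene spread more among sham-treated than among EV-treated samples. Summed over the 12 eosinophil markers, the normalized counts were highest in sham replicate 1 among the sham-treated samples. The sum was 1186850 there, compared with 942207 and 1072240 in sham replicates 2 and 3. Most of it was Prg2, at 717371, 558759 and 627611 in sham replicates 1 to 3. The part of this variation among samples in the results was not tested. Without sham replicate 1, the 8 genes were still called lower and Adgre1 higher, with log2 fold changes of -3.50 for Lyz2, -1.46 for Csf1r and 0.62 for Adgre1.

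**Figure D3:**
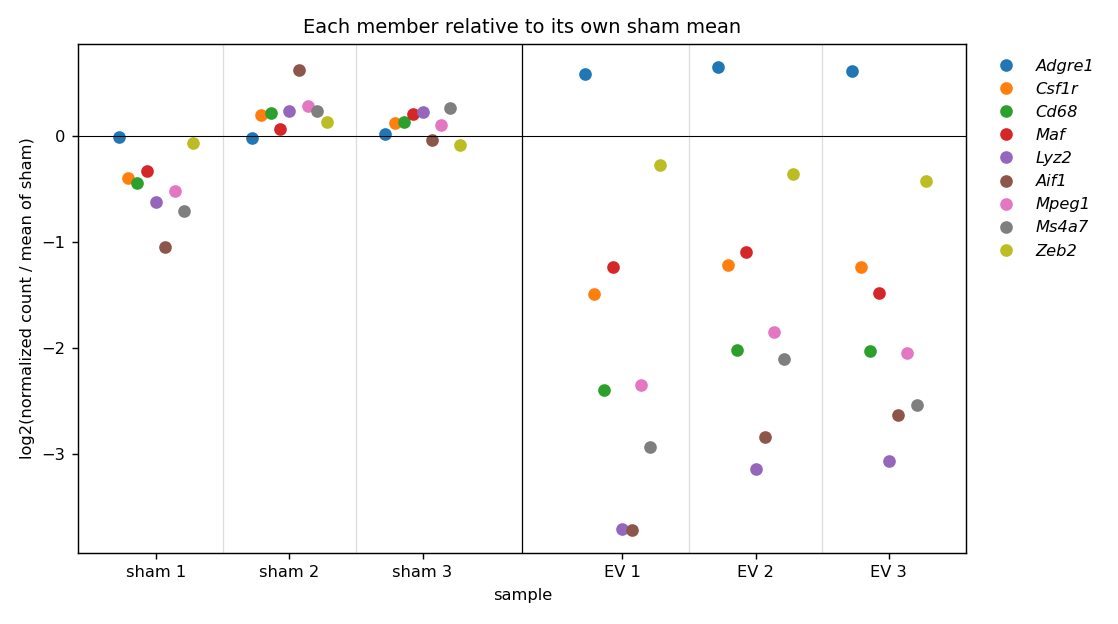
Log2 of each normalized count relative to the mean of the sham-treated samples of the same gene (y axis), for the 9 macrophage identity genes in each of the 6 samples (x axis). In sham replicate 1, 7 genes lie below the other sham-treated samples, and in every EV-treated sample the genes fan out from Adgre1 at the top to Lyz2 or Aif1 at the bottom.

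Other genes of the macrophage program were read from a list of 40. This list and those that follow were chosen with earlier results of these data known. Of the 37 genes tested, 22 were lower, 4 were higher and 11 did not pass, with a median log2 fold change of -0.73. By the same rule, 11.6% of all genes tested were lower and 12.1% were higher. Cd5l, a scavenger protein secreted by macrophages, fell from 2119 ± 804 to 89.6 ± 30.2 (SD, n = 3) normalized counts (log2 scale: -4.55, adjusted p = 5.08e-06). Cd14, the endotoxin co-receptor, changed by -3.38 on the log2 scale (adjusted p = 5.18e-06). Cx3cr1, the fractalkine receptor, had between 101 and 221 normalized counts in sham-treated samples and no count in any EV-treated library, and was at least 61.5-fold lower (against a floor of 3 counts per library), a bound that leaves the median of the list where it was. The efferocytosis receptors Mertk and Axl, named after their values were seen, had log2 fold changes of -2.85 and -2.60. The 4 higher genes, also named after their values were seen, were Tlr4 (2.28), Itgam (0.34), Camk1 (0.34) and Tyrobp (0.33), and without TMM scaling, which lowers the median of all genes from -0.01 to -0.16, 2 genes of the list were called higher. Itgam and Tyrobp are expressed across myeloid cells, eosinophils included.

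Of 24 transcription factors of the macrophage lineage, 8 were higher, 7 were lower and 9 did not pass, with a median log2 fold change of 0.07. The shares over all genes tested were 12.1% higher and 11.6% lower. The changes were in both directions. Irf8, which directs monocyte and dendritic cell fate, fell from 950 ± 299 to 106 ± 45.8 (SD, n = 3) normalized counts (log2 scale: -3.15, adjusted p = 5.01e-05). Bhlhe41 changed by -2.65 on the log2 scale (adjusted p = 1.1e-05). Nr1h3, Cebpa and Mitf, named after their values were seen, were lower too. Their log2 fold changes were -2.48, -2.29 and -1.24 (adjusted p = 0.00048, 1.49e-06 and 5.18e-05). Among the higher factors, named after their values were seen, Bhlhe40 rose from 7503 ± 606 to 35364 ± 1546 (SD, n = 3), by 2.24 on the log2 scale (adjusted p = 2.74e-08). Egr2 and Runx1 rose by 1.51 and 1.07 on the same scale (adjusted p = 7.64e-07 and 3.58e-06). Spi1, which encodes PU.1 and was also named after its values were seen, had 11445 ± 668 and 12929 ± 600 (SD, n = 3), with an adjusted p of 0.0519. The number of higher factors was 5 without TMM scaling, and also 5 without sham replicate 3 or without any one of the 3 EV replicates.

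Genes of CSF1R ligands and signaling were on the whole not lower. Of 30 tested, 14 were higher, 3 were lower and 13 did not pass, with a median log2 fold change of 0.22. Over all genes tested, 12.1% were higher and 11.6% were lower. Socs1, a cytokine feedback inhibitor, and Pik3cd, the leukocyte PI3K catalytic subunit, rose by 5.10 and 1.54 on the log2 scale (adjusted p = 5.75e-08 for each). Fyn, a Src family kinase, fell from 417 ± 120 to 198 ± 25.5 (SD, n = 3) (log2 scale: -1.07, adjusted p = 0.00325). The ligand gene Csf1, named after its value was seen, rose from 10253 ± 837 to 16832 ± 1174 (SD, n = 3) (log2 scale: 0.71, adjusted p = 4.8e-05). Il34, the gene of the other ligand, had too few counts to be tested. Without TMM scaling 9 genes of this list were higher, and without EV replicate 1 only 1 was lower.

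Among the paralogs of the macrophage identity genes, 19 of 26 could be tested, of which 5 were higher, 5 were lower and 9 did not pass (median -0.01 on the log2 scale). The same rule called 12.1% of all genes tested higher and 11.6% lower. In the MS4A family the directions differed. Ms4a6b, Ms4a6d and Ms4a4a fell as Ms4a7 did, changing by -2.27, -1.39 and -1.36 on the log2 scale (adjusted p = 0.000237, 0.00118 and 0.00758 in the same order). Ms4a2, the β subunit of the IgE receptor in mast cells and basophils, rose from 117 ± 64.7 to 742 ± 141 (SD, n = 3), and Ms4a3, a gene of granulocyte progenitors, from 397 ± 66.4 to 744 ± 97.6 (SD, n = 3). Their differences on the log2 scale were 2.64 and 0.91 (adjusted p = 0.000124 and 0.00104). In the small MAF proteins, Mafg and Mafk had log2 fold changes of -0.01 and 0.03 and did not pass. Lamp1, a lysosomal relative of Cd68, fell by 0.48 on the log2 scale (adjusted p = 0.000193), and Lamp2 did not pass.

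Markers of other cell types moved with treatment too, and their part in the results was not tested. For every cell type list, the shares to compare with are 12.1% higher and 11.6% lower over all genes tested. Of 12 eosinophil markers, 8 were higher and the rest did not pass (median 0.67 on the log2 scale), although 1 was called lower without TMM scaling. Their summed level lay between 942207 and 1186850 normalized counts in sham-treated and between 1344100 and 1501580 in EV-treated samples. Most of this sum was Prg2, which did not pass (edgeR adjusted p = 0.0478). Ccr3, Ear1 and Siglecf changed most, at 1.13, 0.90 and 0.85. Of 9 monocyte markers tested, 1 was higher and 4 were lower (median 0.01), and the summed level rose from between 16707 and 21353 to between 28434 and 32308, most of it from Ly6c2, which had 10910 ± 866 and 27641 ± 2043 (SD, n = 3). The lower ones were Cx3cr1 and Cd14, which are also on the macrophage core list, F13a1, with a log2 fold change of -3.21, and the matrix gene Fn1, with -2.24. Only 2 were called lower without sham replicate 1, EV replicate 2 or EV replicate 3. Of 9 dendritic cell markers, 0 were called in either direction by edgeR without a replicate block (3 had an unadjusted p under 0.05, all lower). DESeq2 called 1 lower and limma 0, and edgeR called 1 lower without sham replicate 1. Their median was -0.31, and their summed level ranged from 7055 to 10137 in sham-treated and from 6664 to 8770 in EV-treated samples. The most abundant were Itgax, with 5085 ± 368 and 5704 ± 579 (SD, n = 3), and Cd74, with 1692 ± 821 and 918 ± 234 (SD, n = 3, adjusted p = 0.0437).

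Of 11 neutrophil markers tested, 2 were higher and 6 were lower (median -0.90), with summed levels of 22946 to 26432 in sham-treated and 20514 to 24479 in EV-treated samples. Ly6g and Cxcr2 rose by log2 fold changes of 2.65 and 1.87, and Camp fell by 2.02 on the log2 scale. Ngp and Mmp8 were the most abundant, Ngp with 7950 ± 1079 and 8067 ± 1453 (SD, n = 3) and Mmp8 with 5082 ± 699 and 1587 ± 241 (SD, n = 3). Of 7 mast cell and basophil markers tested, 5 were higher (median 1.30), and the summed level rose from between 5099 and 6195 to between 12046 and 14239. Ms4a2, Mcpt8 and Cpa3 led, with log2 fold changes of 2.64, 2.46 and 1.30, and Gata2, the most abundant, had 2464 ± 194 and 5187 ± 273 (SD, n = 3).

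Lymphocyte and stromal markers were low or uneven. Of the 10 T cell markers 3 could be tested, and 1 was lower (2 without sham replicate 1). This was Il7r, at 1612 ± 498 and 362 ± 78.4 (SD, n = 3). Il7r made up most of the summed level of 1121 to 2105 in sham-treated and 383 to 558 in EV-treated samples. The T cell receptor and co-receptor genes Cd3d and Cd8a did not pass, Cd3d with 38.3 ± 30.0 and 48.4 ± 19.2 (SD, n = 3, adjusted p = 0.714) and Cd8a with 62.9 ± 26.6 and 52.2 ± 11.9 (SD, n = 3, adjusted p = 0.672). The other defining markers Cd3g, Cd4, Trac, Lck and Cd2 had too few counts to be tested. Of 6 B cell markers tested, 1 was higher, Ighm (log2 fold change 0.57), a call lost without sham replicate 2, EV replicate 2, EV replicate 3 or TMM scaling. The summed level was 2105 to 3221 in sham-treated and 3312 to 4065 in EV-treated samples. Stromal markers summed to between 11308 and 21375 in sham-treated cultures, and to 7677, 1737 and 2302 in EV replicates 1 to 3. Their median log2 fold change was -1.69 over the 6 genes tested, and 1 was called lower, Col1a2, at 6988 ± 1767 and 939 ± 1085 (SD, n = 3). That count was 3 with limma and 0 with DESeq2. In edgeR it was 3 without EV replicate 1 and 0 without any one of the other 5 samples.

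**Figure D4:**
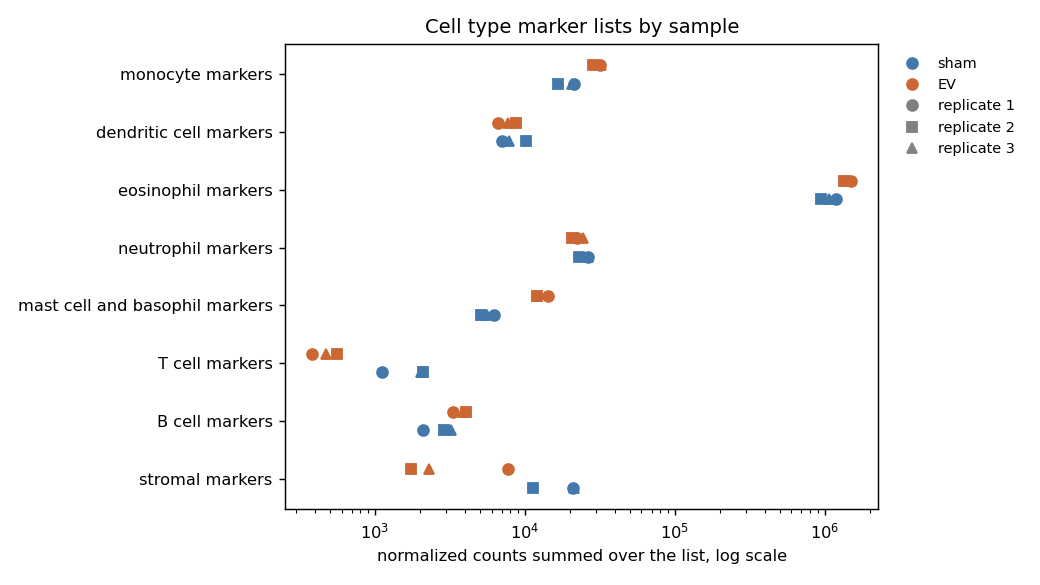
Normalized counts summed over each cell type marker list (x axis, log scale) in the 6 samples, with sham in blue, EV in orange and 1 marker shape per replicate. Eosinophil markers sum to at least 942207 in every sample. The sums of stromal and of T cell markers are lower in all EV-treated samples. Those of eosinophil, monocyte, B cell, and mast cell and basophil markers are higher in all EV-treated samples. Most of the T cell sum is Il7r, and most of the eosinophil sum is Prg2.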

How the data were processed

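Bone marrow-derived eosinophils, 3 sham-treated and 3 EV-treated samples, were profiled by RNA sequencing, and groups and replicate numbers came from the sample titles. Per the labels and methods, the authors used FastQC, Cutadapt, Salmon and DESeq2 (versions not given in the sources used here) with build mm10. The authors deposited estimated counts for 16254 genes, and normalized counts, a signal equal to the rounded count plus 1 divided by a size factor. A deposited table of the authors' own comparison (fold changes and p-values) was not used.

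The counts were rounded to whole numbers and tested in edgeR 4.0.16 (R 4.3.3; TMM, filterByExpr, quasi-likelihood test, Benjamini-Hochberg adjustment over 13498 genes, threshold 0.01). The SE is the size of the log2 difference over the root of its F statistic. With 3 samples per group, the smallest p of an exact two-sided permutation test is 0.1. The labels call the samples biologic replicates, but whether they came from separate mice is not given, so p-values measure the spread between these samples. Coordinates, lengths and shared 31-base words come from GENCODE vM21 (mm10), and promoters from RefSeq. No 2 libraries of the same group agreed within sampling noise. The scripts were tested on simulated data.

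Members and gene lists were chosen with earlier results of these data known. Named genes were all 9 members, tested paralogs, the 3 most changed called genes of each list, for cell type lists the 2 most abundant, and the 5 genes nearest to Adgre1 in profile. Alternatives were other scalings, no filter, DESeq2 1.42.0, limma 3.58.1 on log2(deposited value + 1), a replicate block, other thresholds, Lyz1 added to Lyz2, and each sample left out. Some genes that the rule names are not reported here.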

Additional observations from a re-analysis of the deposited data

How the results depend on the processing

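Of 109 recomputed log2 fold changes of the 9 macrophage identity genes, 106 kept their direction and stayed under an adjusted p of 0.01, and the other 3 were those of Zeb2 named above. The 8 genes lower and 1 higher were also the counts under the other scalings, no filter, DESeq2, limma, the replicate block and a threshold of 0.05. With samples left out, 7 to 8 were lower and 1 was higher. Where the log2 difference also had to reach 1, 0 of the 9 were higher, and 419 of all genes rose and 857 fell. With the threshold at 0.05, 2478 genes were lower. With each sample left out, 1071 to 1833 genes were higher and 1018 to 1698 lower, both lowest without EV replicate 3.

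Without TMM, 1036 genes were higher and 2342 lower (30.7% of calls higher, against 50.9% with it). Higher counts were then 2 for the macrophage core list, 5 for transcription factors, 9 for CSF1R signaling and 0 for B cell markers, and 1 eosinophil marker was lower. Higher monocyte markers numbered 2 with no filter, DESeq2, limma or the replicate block. DESeq2 called 5 CSF1R signaling genes, 1 dendritic cell marker and 0 stromal markers lower, and limma 3 stromal markers. With the replicate number as a block, 5 CSF1R signaling genes, 2 dendritic cell markers and 3 stromal markers were lower, and 1794 genes were higher and 1781 lower over all. The numbers were taken to pair the samples only if deviations of every same-numbered pair correlated above 0.1 across genes. The correlations were 0.117, 0.0846 and 0.0371, so they were not. Pairs of unlike number had correlations from -0.116 to 0.0487. Every macrophage identity gene had a lower edgeR adjusted p with the block, such as 4.69e-15 against 4.59e-06 for Lyz2. As a hint towards pairing from the data, not the design, 5 of 6 samples correlated best with their own number. With samples left out, the counts were 5 to 7 transcription factors higher, 1 to 4 CSF1R signaling genes lower, 1 to 2 monocyte markers higher and 2 to 3 lower, 0 to 1 dendritic cell markers lower, 1 to 2 T cell markers lower, 0 to 1 B cell markers higher and 0 to 3 stromal markers lower. The cause of these shifts was not tested. Depth limits Aif1 most, with 14 to 34 counts in EV-treated libraries.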
